A study of Mus musculus with 65 samples.

Results

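The 9 genes described here carry glycine and GABA transmission and were chosen by name from the 49670 gene IDs of the count table. They are Slc6a5 and Slc6a9, the neuronal and glial glycine transporters GlyT2 and GlyT1; Glra1, Glra3 and Glrb, subunits of the glycine receptor; Gad1 and Gad2, the enzymes that make GABA; Slc32a1, the vesicular transporter VIAAT; and Gphn, the scaffold protein gephyrin. All 9 passed the filter on low counts in every comparison. RNA was sequenced in 65 libraries of C57BL/6J mice, from cerebellum at 18 weeks of age and from medulla and pons at 18 and 28 weeks. Wild type mice received vehicle. Mice with the genotype Atxn1[82Q], in which Atxn1 carries a knocked-in expanded CAG repeat as a model of spinocerebellar ataxia type 1, were given either vehicle or an antisense oligonucleotide, here ASO, directed at Atxn1. Every group held 4 libraries in cerebellum and in pons at 28 weeks, and 3 in medulla and pons at 18 weeks. For medulla at 28 weeks the wild type group held 8 libraries, the vehicle-treated knockin 8 and the ASO-treated knockin 7, spread over 2 batches named in the labels. The knockin allele is present in every cell, and dose and route of the ASO are not given in the sources used here. Since separate mice per library are not stated, p-values here speak only to library-to-library spread, part of which may be technical.

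Glycine and GABA are the fast inhibitory transmitters of the hindbrain, and many of its inhibitory neurons release both from the same vesicles. GlyT2 reloads the terminals of glycinergic neurons, VIAAT fills their vesicles with either transmitter, and GlyT1, which sits mainly on astrocytes, clears glycine from the synapse. Receptors for glycine are built from alpha subunits with the beta subunit, which gephyrin anchors opposite the terminal. In the cerebellum, Purkinje cells and molecular layer interneurons use GABA, whereas Golgi cells use both transmitters. Glycinergic neurons are numerous in medulla and pons.

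On GRCm38, counted from 1, the genes lie apart from each other on 7 chromosomes. Slc6a5 (ENSMUSG00000039728) spans chr7:49910146-49963856 on the plus strand, and Slc6a9 (ENSMUSG00000028542) spans chr4:117834506-117875198 on the plus strand. Glra1 (ENSMUSG00000000263) lies at chr11:55514238-55608198 on the minus strand, Glra3 (ENSMUSG00000038257) at chr8:55940460-56130070 on the plus strand and Glrb (ENSMUSG00000028020) at chr3:80843599-80913660 on the minus strand. Gad1 (ENSMUSG00000070880) at chr2:70553072-70602014, Gad2 (ENSMUSG00000026787) at chr2:22622205-22693874 and Slc32a1 (ENSMUSG00000037771) at chr2:158610767-158615748 share chromosome 2, all on the plus strand. Gphn (ENSMUSG00000047454) spans chr12:78226379-78684772 on the plus strand. Counts cover all exons of a gene together. On the opposite strand, exons of Ccdc24, Gm17114 and B4galt2 overlap those of Slc6a9, exons of Gm14205 overlap those of Slc32a1, and exons of Gm12236 overlap those of Glra1. Whether the counting used strand is not given, so reads from these stretches cannot be assigned to a gene with certainty.

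Slc6a9 is the gene on which the results turn, and its upstream sequence is therefore shown. The RefSeq table (GRCm38.p6) lists 3 starts for it, and it held windows for 8 of the 9 genes, 11 in all, with none for Glra1. Of the 250 bases before the Slc6a9 start at chr4:117835008-117835257, 250 lie in annotated exons, so none of that window is printed. The stretches of the other windows that precede any annotated exon, on the plus strand, 5′ to 3′, are chr4:117849100-117849192 for the middle start and chr4:117855297-117855491 for the downstream start:
Slc6a9, middle start: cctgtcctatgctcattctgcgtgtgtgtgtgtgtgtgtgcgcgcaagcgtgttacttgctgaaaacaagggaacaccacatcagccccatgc
Slc6a9, downstream start: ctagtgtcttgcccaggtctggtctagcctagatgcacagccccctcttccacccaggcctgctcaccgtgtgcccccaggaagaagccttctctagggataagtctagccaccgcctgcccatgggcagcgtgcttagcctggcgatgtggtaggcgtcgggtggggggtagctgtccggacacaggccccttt
Capicua, the repressor to which ataxin-1 binds, recognises TGAATGAA and TGAATGGA. On either strand, these octamers were found in 1.08% and 1.01% of 32851 windows of 250 bases and in 0 of the 11 windows of these genes, which says only that the letters are not there. GGGCGG, the core of an Sp1 site, was found in 32.7% of all windows and in 5 of 11, namely those of Gad1, Glrb, Glra3 and Gphn and the exonic window of Slc6a9, which holds 2. The 3 Slc6a9 windows held 60.4% to 60.8% G and C, and gene counts do not tell which start was used.

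Total counts ran from 49.2 M to 119.1 M per library (median 77.0 M). Atxn1, the target of the ASO, was below the lowest vehicle-treated knockin library of its tissue and age in 18 of 21 ASO libraries. Several libraries went against their labels. At 18 weeks, ASO replicate 2 had 39.0 CPM of Atxn1 (TMM-scaled counts per unit of library size) in medulla and 51.0 in pons, and wild type replicate 3 had 15.3 and 16.5 CPM. In pons, wild type replicate 1 had 51.6 CPM, above the vehicle-treated knockin libraries at 44.4 to 49.4. At 28 weeks, ASO replicate 2 had 49.4 CPM in medulla and 51.0 in pons, near the vehicle-treated knockin. These are called the libraries labelled so, and results without them are given below. Pons wild type replicate 1 at 18 weeks was left out only on its own, not together with the others. The tissue labels were checked with Hox genes of groups 4 to 8, which are active in the medulla: 4 libraries labelled medulla at 28 weeks had a mean log2 CPM over these genes of -1.9 to -1.4, against 0.67 to 3.63 in the other 19 and -2.39 to -0.32 in the 12 pons libraries. They are wild type replicate 5, vehicle-treated knockin replicate 8 and ASO replicates 6 and 7, all of batch 2. Cerebellum had 2 to 4 of the 15 Hox genes at 0 in each group. Pcp2, a Purkinje cell gene, stood at 229 to 402 CPM in the cerebellar groups, and in pons at 18 weeks at 8.31 CPM in wild type, 7.77 in the knockin on vehicle and 0.331 in the knockin on ASO. In medulla at 28 weeks it had 4.87 CPM in wild type, 5.22 in the knockin on vehicle and 6.24 in the knockin on ASO. Its group means were 0.629 to 0.854 CPM in medulla at 18 weeks and 1.17 to 2.12 CPM in pons at 28 weeks.

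In wild type, Gad1 was higher in cerebellum than in medulla or pons, and Slc6a5, Glra1 and Glra3 were far lower there. Levels between genes are compared here as CPM per kilobase of merged exon length. In cerebellum, Gad1 was highest at 106 ± 1.73 (SD, n = 4), followed by Slc32a1 at 60.8 and Glrb at 57.0, with Slc6a5 at 5.22, Glra1 at 0.38 and Glra3 at 0.0917 at the bottom. In medulla at 18 weeks, Glrb was highest at 88.4, then Slc6a5 at 76.7 and Slc32a1 at 52.2 (n = 3). In medulla at 28 weeks the order began with Glrb at 87.1, Slc32a1 at 67.1 and Slc6a5 at 58.8 (n = 8). The order for pons at 28 weeks was Glrb at 83.5, then Slc32a1 at 58.5 and Gad2 at 58.3 (n = 4). Glra3 was lowest in all these groups, at 2.38 to 3.14 in medulla at both ages and pons at 28 weeks.

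**Figure D1:**
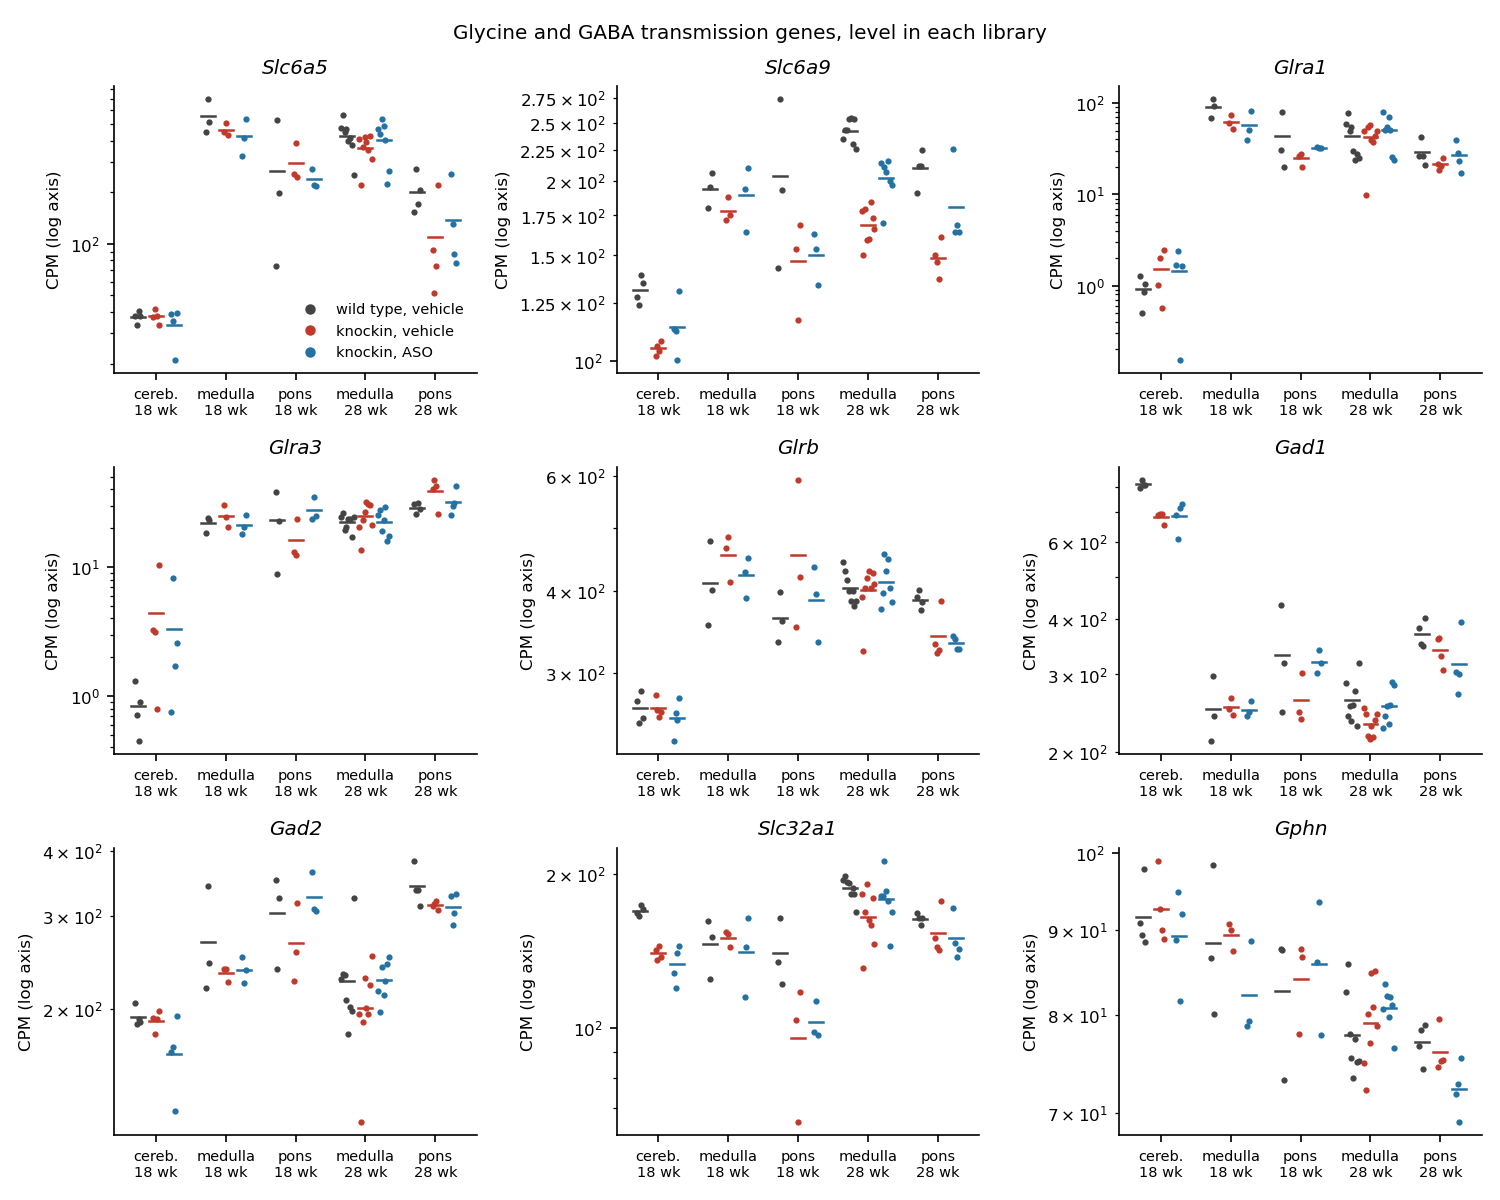
Level of each gene (TMM-scaled CPM, logarithmic axis) in every library, by tissue and age on the horizontal axis and by group in colour, with bars at group means. Glra1, Glra3 and Slc6a5 are far lower in cerebellum than in medulla or pons, Gad1 is higher there, and Gphn stays between 69.1 and 98.9 CPM in every library.

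Between tissues, wild type libraries were compared on CPM with edgeR. Cerebellum differed from medulla at 18 weeks in 7 of the 9 genes, against 59.2% of 20176 genes tested (29.3% higher and 30.0% lower in cerebellum). It differed from pons in 7 of 9, against 56.1% (27.6% higher and 28.4% lower). Most genes differ between these tissues, so the counts say little by themselves. For the glycinergic side the sizes were large. Slc6a5 had 37.8, 33.7, 40.8 and 38.1 CPM in cerebellum and 448, 698 and 511 CPM in medulla, a log2 difference of -3.9 ± 0.59 (SE; adjusted p = 0.00072, edgeR). Glra1, the alpha subunit of the adult receptor, averaged 0.917 CPM in cerebellum and 90.7 in medulla (log2 difference -6.65 ± 0.59, adjusted p = 2.6e-05). Glra3 averaged 0.844 and 21.9 CPM (-4.72 ± 0.52, adjusted p = 6.5e-05). Libraries of the tissues did not overlap for any of the 3 genes. The remaining differences were smaller: Glrb was lower in cerebellum by -0.66, Slc6a9 by -0.59 and Gad2 by -0.51 on the log2 scale. Gad1 went the other way, at 809.8 CPM in cerebellum and 250.5 in medulla (1.67 ± 0.17, adjusted p = 4.4e-06). Slc32a1, which serves both transmitters, did not pass the test (0.19, adjusted p = 0.14), nor did Gphn (0.02, adjusted p = 0.82). The Gad2 call was lost without medulla wild type replicate 2 (-0.32, adjusted p = 0.0541). Against pons the same 7 genes were called in the same directions, with Slc6a5 at 266 CPM in pons (-2.85 ± 0.57) and Gad1 at 332 (1.26 ± 0.17). Without pons wild type replicate 2, which had 525 CPM of Slc6a5, the difference to pons was -1.89 for Slc6a5 (adjusted p = 0.003) and -0.38 for Slc6a9 (adjusted p = 0.013). Leaving out the libraries labelled wild type replicate 3 in medulla and pons left 7 calls in either comparison.

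Medulla and pons differed less. At 18 weeks edgeR called 0 of 9 genes (0.833% of genes tested were called, 0.292% higher and 0.54% lower in medulla), with 1 gene at an unadjusted p under 0.05 and 0 calls by DESeq2. Slc6a5 varied widely in wild type pons of that age, at 74.5, 525 and 197 CPM. At 28 weeks 6 of 9 genes were called, against 10.9% of 20362 genes tested (5.6% higher and 5.27% lower in medulla). Slc6a5 was higher in medulla, at 424 ± 89.2 CPM (SD, n = 8) against 154, 274, 170.5 and 206 CPM in pons (log2 difference 1.07 ± 0.21, adjusted p = 0.013), and the highest pons library lay above the lowest medulla library. Slc6a9 (0.2 ± 0.05) and Slc32a1 (0.19 ± 0.04) were also higher in medulla. Gad2 was lower in medulla, at 226 ± 44.5 CPM against 342 ± 28.7 (n = 4; -0.61 ± 0.13, adjusted p = 0.015), as were Gad1 (-0.51 ± 0.08, adjusted p = 0.0052) and Glra3 (-0.38 ± 0.1, adjusted p = 0.027). Without pons wild type replicate 1, 2 calls were left, and without pons wild type replicate 3, 1 was left, that of Gad1. Medulla batch 2 alone left 2 calls. Of the 4 medulla libraries low in Hox genes only wild type replicate 5 enters this comparison, and leaving it out left 6.

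The 4 medulla libraries low in Hox genes had levels nearer to pons for several of these genes. Their Gad2 ranged from 243 to 325 CPM, above the other 19 medulla libraries at 122 to 240.4 and partly within the pons range of 289 to 382. Their Slc6a5 ranged from 222 to 314 CPM, at the low end of the other medulla libraries (220.2 to 560, median 418), with pons at 51.3 to 274. Glra1 had 23.6 to 49.1 CPM in them, 9.96 to 79.3 in the other medulla libraries and 17.1 to 42.7 in pons. For Slc6a9 the 4 libraries, at 166 to 226 CPM, lay inside the range of the others, 150.5 to 255. This set of 4 was chosen after the values were seen, and what sets it apart was not tested.

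**Figure D2:**
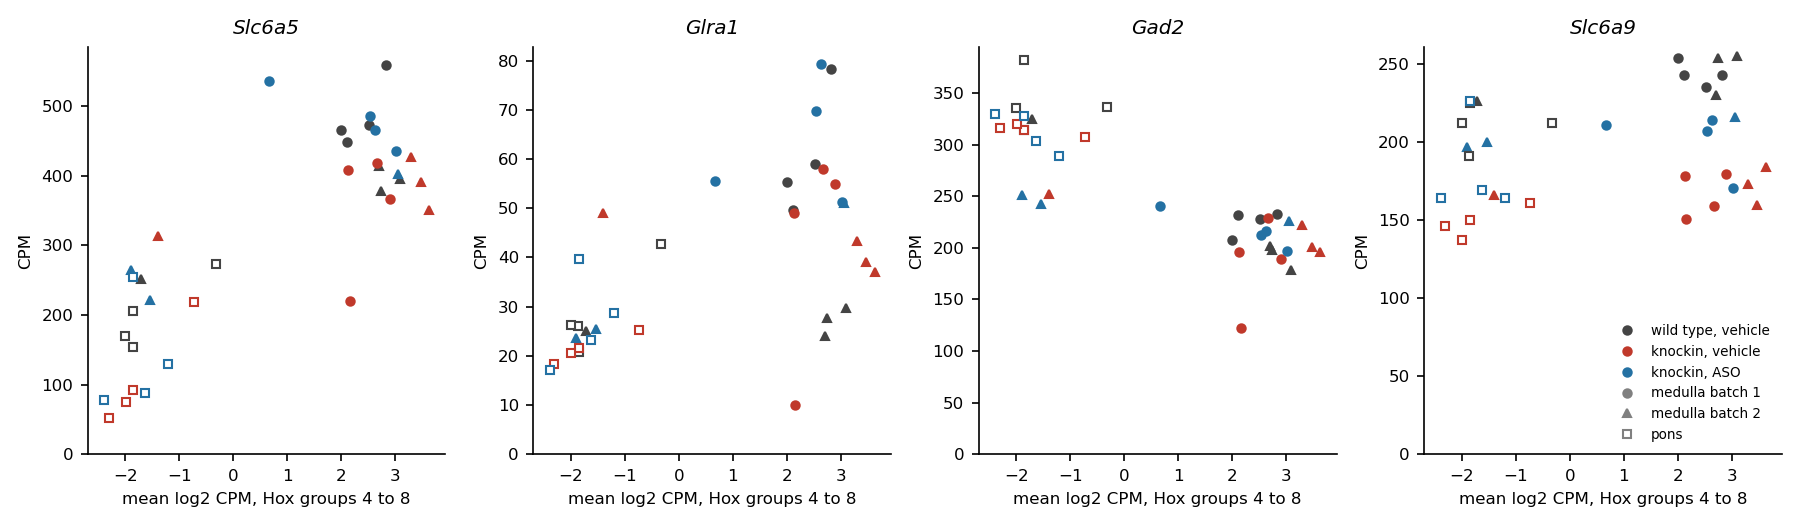
CPM of Slc6a5, Glra1, Gad2 and Slc6a9 (vertical axes, from 0) against the mean log2 CPM of 15 Hox genes in the 35 libraries of medulla and pons at 28 weeks; colours give the groups, filled circles and triangles medulla batches 1 and 2, open squares pons. The 4 medulla triangles at a Hox mean below -1 have Gad2 of 243 to 325 CPM, above the other medulla points.

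In the vehicle-treated knockin, edgeR called Slc6a9 lower in more than 1 tissue. DESeq2 also called Gad1 and Slc32a1 lower in both cerebellum at 18 weeks and medulla at 28 weeks. The comparison asks which of the genes the expanded Atxn1 allele moves. At 28 weeks Slc6a9 fell in medulla and in pons by about the same amount. It also fell in cerebellum at 18 weeks, a call lost under 11 of 17 other settings. The size in cerebellum was not tested against those at 28 weeks, where both tissue and age differ. Gad1 passed the threshold in medulla and Glrb in pons at 28 weeks, both narrowly. Cerebellum at 18 weeks had 1 call among the 9, where 2.71% of 20350 genes tested were called (0.654% higher and 2.06% lower). Medulla at 28 weeks had 2, both lower, where 19.3% of 20465 were called (9.28% higher and 9.99% lower). A count of 2 of 9 is near the share called in either direction, and 1 of the 2 is the narrow Gad1 call, so it says little by itself. Pons at 28 weeks had 2, where 9.79% of 20458 were called (4.14% higher and 5.65% lower). At 18 weeks edgeR and DESeq2 called 0 of 9 genes in medulla and 0 in pons (edgeR called 0.0% of all genes in each), where 0 and 1 of the 9 had an unadjusted p under 0.05. The median log2 difference over the 9 genes was 0.0 in cerebellum, -0.17 in medulla and -0.13 in pons at 28 weeks, beside 0.01 over all genes tested in each.

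**Figure D3:**
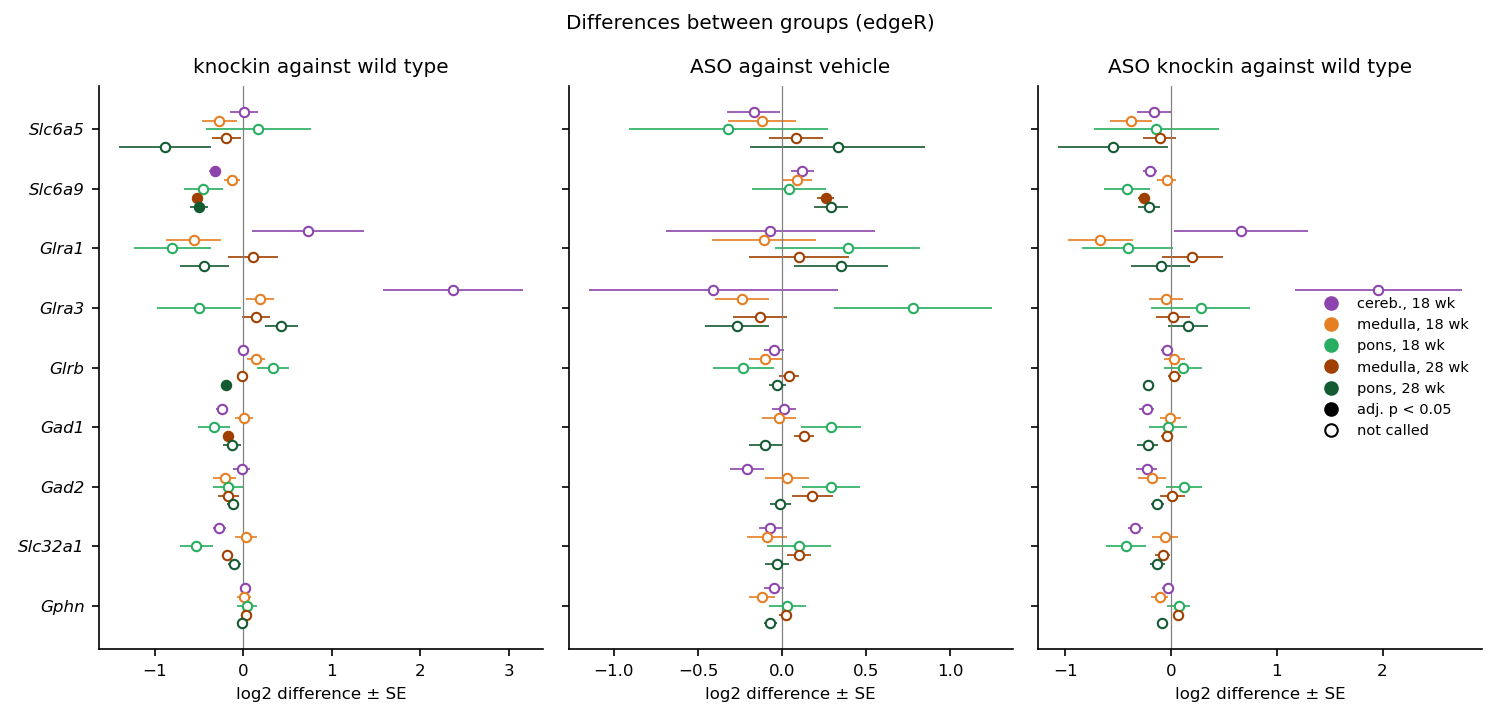
Log2 difference with its standard error (horizontal axis) for each gene in 3 comparisons, with 5 combinations of tissue and age in colour; filled points passed an adjusted p of 0.05 (edgeR). In the left panel Slc6a9 is called at -0.32 in cerebellum, -0.52 in medulla and -0.5 in pons at 28 weeks, and in the middle panel at 0.26 in medulla at 28 weeks. Open points with wide bars are mostly Glra1, Glra3 and Slc6a5.

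Slc6a9 in medulla at 28 weeks ranged from 226 to 255 CPM in wild type (median 243, n = 8) and from 150.5 to 184 CPM in vehicle-treated knockin (median 169, n = 8). Every knockin library lay below every wild type library. The log2 difference was -0.52 ± 0.05 (adjusted p = 1.6e-07, edgeR), a level 1.43-fold lower. It was -0.54 in batch 1 alone (adjusted p = 0.0032) and -0.5 in batch 2 alone (adjusted p = 0.00022), and -0.53 without the libraries low in Hox genes. B4galt2, whose exons overlap Slc6a9, changed by -0.18 ± 0.04 from 28.1 to 24.8 CPM (adjusted p = 0.0067), and Ccdc24 stood at 0.393 CPM in wild type.

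Slc6a9 in pons at 28 weeks had 191, 212, 212 and 225 CPM in wild type and 150.3, 146, 137 and 161 CPM in vehicle-treated knockin. Again the groups did not overlap (log2 difference -0.5 ± 0.1, adjusted p = 0.0088, edgeR). In cerebellum at 18 weeks the wild type libraries had 128, 124, 139 and 135 CPM and the knockin libraries 102, 106, 104 and 108 CPM. All 4 knockin libraries were lower (-0.32 ± 0.07, adjusted p = 0.036), but the call was lost when any 1 wild type or vehicle-treated knockin library, or ASO replicate 1, was left out (adjusted p up to 0.12) and without the filter on low counts (adjusted p = 0.079). At 18 weeks the difference was -0.13 ± 0.09 in medulla (adjusted p = 0.88; wild type 180.3, 195 and 206 CPM, knockin 172, 188 and 175 CPM). In pons at 18 weeks it was -0.45 ± 0.22 (adjusted p = 0.42), with 143, 274 and 193 CPM in wild type and 154, 117 and 169 CPM in knockin, which overlap. Without the libraries labelled wild type replicate 3 and ASO replicate 2 at 18 weeks, Slc6a9 differed by -0.09 in medulla and -0.49 in pons. It still was not called, and 0 of 9 genes were called in either tissue. Pons wild type replicate 1, whose Atxn1 also went against the label, stayed in that fit, with 143 CPM of Slc6a9. Left out on its own, it also left 0 of 9 genes called.

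ASO treatment was compared with vehicle in the knockin to see which of these genes moved back when Atxn1 was lowered. This comparison shares the vehicle-treated knockin with the one above, and a high or low vehicle group would move both in opposite directions. Slc6a9 in medulla at 28 weeks rose to between 170.3 and 216 CPM (median 207, n = 7), from a median of 169 in vehicle (log2 difference 0.26 ± 0.05, adjusted p = 0.0067, edgeR). It was the 1 gene of 9 called (1.69% of genes tested were called, 1.3% higher and 0.386% lower). The lowest ASO library, the library labelled replicate 2, lay inside the vehicle range, and the other 6, at 197 to 216 CPM, lay above it. Without that library the difference was 0.29 ± 0.04 (adjusted p = 0.00024). Within batches the sizes were 0.26 in batch 1 (adjusted p = 0.36) and 0.25 in batch 2 (adjusted p = 0.068), so that neither batch alone gave a call. The difference was 0.28 without the libraries low in Hox genes (adjusted p = 0.033).

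After ASO, Slc6a9 in pons at 28 weeks had 226, 164, 169 and 164 CPM. All 4 lay above the vehicle libraries, yet the gene was not called (0.29 ± 0.1, adjusted p = 0.2). Without ASO replicate 1, which had 226 CPM, the difference was 0.17 (adjusted p = 0.46), and without the library labelled ASO replicate 2 it was 0.34 (adjusted p = 0.15). Cerebellum gave 0.12 ± 0.07 (adjusted p = 0.67; ASO libraries at 113, 112, 100.3 and 131 CPM). For pons at 28 weeks edgeR and DESeq2 called 0 of 9 genes (0.0929% of genes tested by edgeR, 0.0831% higher and 0.00978% lower), with 1 at an unadjusted p under 0.05. In cerebellum 0 of 9 were called by either tool (0.0491% of genes tested), with 0 at an unadjusted p under 0.05. In medulla and pons at 18 weeks 0 of 9 were called by either tool (0.0% of all genes) and 0 had an unadjusted p under 0.05.

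ASO-treated knockin was also set against wild type, with which the first comparison shares its controls. In medulla at 28 weeks Slc6a9 was lower, at 202 ± 15.8 CPM (n = 7) against 242 ± 11.3 (n = 8; log2 difference -0.26 ± 0.05, adjusted p = 0.007, edgeR). It was the only gene of the 9 called there (3.8% of genes tested, 1.77% higher and 2.02% lower). The call was lost in batch 1 alone (-0.27, adjusted p = 0.24) and in batch 2 alone (-0.25, adjusted p = 0.066). Without the library labelled ASO replicate 2 the difference was -0.22 (adjusted p = 0.012). Pons at 28 weeks gave -0.21 ± 0.1 (adjusted p = 0.26), and without ASO replicate 1, -0.34 (adjusted p = 0.032). In cerebellum it was -0.2 ± 0.07 (adjusted p = 0.35). edgeR called 0 of 9 genes in pons at 28 weeks (1.07% of genes tested, 0.474% higher and 0.591% lower) and 0 in cerebellum (0.0%), with 5 genes at an unadjusted p under 0.05 in each, and DESeq2 called 1, Glrb, and 2, Gad1 and Slc32a1. In medulla and pons at 18 weeks both tools called 0 (0.0% of all genes), with 0 and 1 genes at an unadjusted p under 0.05.

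Astrocyte markers moved together with Slc6a9. A list of 10 such genes (Aqp4, Gja1, Gjb6, Slc1a2, Slc1a3, Aldoc, Fgfr3, Agt, Slc4a4 and Ntsr2) had a mean log2 CPM of 8.28 to 8.49 in wild type medulla at 28 weeks, 7.54 to 7.89 in vehicle-treated knockin and 7.65 to 8.4 in ASO-treated knockin. In that tissue 9 of the 10 fell in the knockin, and 9 rose with the ASO, where 9.99% and 1.3% of all genes tested did so. The ranges in pons at 28 weeks were 8.13 to 8.24, 7.54 to 7.67 and 7.68 to 8.17, and 8 of the 10 fell in the knockin while 0 were called with the ASO, where 9 had an unadjusted p under 0.05. In cerebellum they were 8.21 to 8.35, 7.93 to 8.04 and 8.18 to 8.23, and 2 fell in the knockin. Of all genes tested, 5.65% fell in pons at 28 weeks and 2.06% in cerebellum. None of the 10 was at 0 in any group. The library labelled ASO replicate 2 at 28 weeks, lowest in Slc6a9 among the ASO libraries of medulla, was also lowest in this list in medulla (7.65) and pons (7.68). The 18-week libraries labelled ASO replicate 2 (7.81 and 7.82) and wild type replicate 1 (7.82 and 7.79) were lowest of their groups too. In this bulk RNA, fewer cells of a type and less RNA per cell cannot be told apart.

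Slc6a9 was also set against that list. Its log2 CPM minus the mean of the list was -0.43 ± 0.06 in wild type medulla at 28 weeks (SD, n = 8), -0.36 ± 0.13 in vehicle-treated knockin (n = 8) and -0.5 ± 0.16 in ASO-treated knockin (n = 7). Values in pons at 28 weeks were -0.46 ± 0.09, -0.4 ± 0.06 and -0.49 ± 0.17 (n = 4 each), and in cerebellum -1.25 ± 0.08, -1.26 ± 0.05 and -1.36 ± 0.14 (n = 4 each). The libraries of the 3 groups overlapped on this measure in each tissue, and cerebellum stood lower than medulla and pons. Oligodendrocyte markers also moved. In the knockin at 28 weeks 6 of 8 fell in medulla and 4 of 8 in pons, where 9.99% and 5.65% of all genes tested fell. With the ASO 3 rose in medulla, where 1.3% of all genes tested rose. The part of these markers in the Slc6a9 result was not tested.

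**Figure D4:**
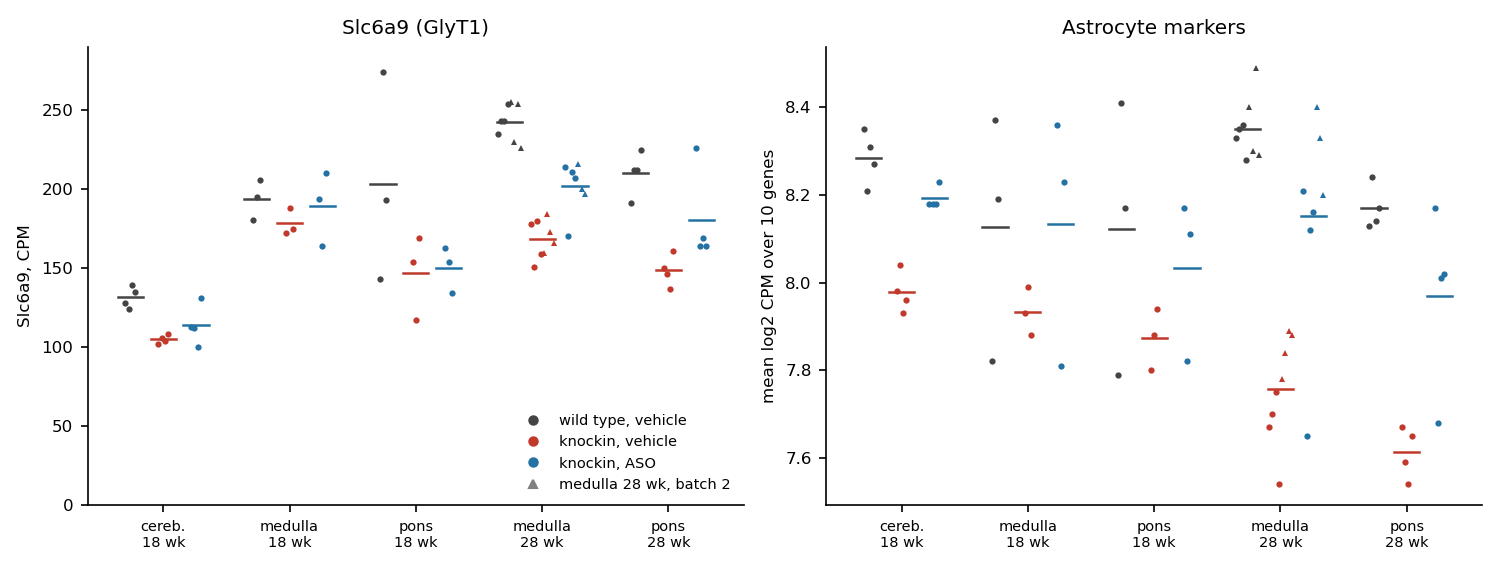
Slc6a9 (CPM, left, axis from 0) and the mean log2 CPM of 10 astrocyte markers (right) in each library, by tissue and age, with the 3 groups in colour, bars at group means, and triangles for medulla batch 2 at 28 weeks. In medulla and pons at 28 weeks the vehicle-treated knockin lies below wild type on both sides, at 150.5 to 184 and 137 to 161 CPM for Slc6a9, with most ASO-treated libraries between.

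The gene most like Slc6a9 over the 15 group means of log2 CPM, among 13719 genes, was the astrocyte marker Fgfr3 (Pearson r = 0.986). Gna12 (0.975), C030014I23Rik (0.972), Inf2 (0.969) and Cdc42ep2 (0.964) followed. Of the other 8 genes followed here, Glra1 was nearest to it (0.816). These 15 points come from 5 combinations of tissue and age and largely reflect the tissue, so the coefficients are descriptions only.

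Slc6a5, the transporter that marks glycinergic neurons, was not called by edgeR or DESeq2 in any comparison of genotype or treatment. In pons at 28 weeks the wild type libraries had 154, 274, 170.5 and 206 CPM and the vehicle-treated knockin libraries 92.3, 51.3, 74.3 and 219 CPM. Of the 4 knockin libraries 3 were below all wild type libraries and 1 was not (log2 difference -0.88 ± 0.52, adjusted p = 0.33). Without that library, replicate 4, it was -1.48 ± 0.46 (adjusted p = 0.055, edgeR). In medulla at 28 weeks the ranges overlapped, at 252 to 560 CPM (median 432) in wild type and 220.2 to 427 CPM (median 379.5) in knockin (-0.19 ± 0.16, adjusted p = 0.44). The difference was -0.46 in batch 1 (adjusted p = 0.16) and 0.05 in batch 2 (adjusted p = 0.9). In cerebellum, where the gene is expressed by Golgi cells, it averaged 37.6 CPM in wild type and 37.7 in knockin (0.01 ± 0.16). Over the 15 group means, its pattern was nearest to that of Kctd9 (r = 0.989), Srxn1 (0.989), Ank (0.985), Dffa and Hebp2 (0.984 each), with Glrb at 0.965 and Gad1 at -0.947.

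Among the receptor subunits, Glrb, which binds gephyrin, was called in pons at 28 weeks. Wild type ran from 374 to 402 CPM (389 ± 11.8, SD, n = 4) and vehicle-treated knockin had 332, 322, 325 and 387 CPM, of which replicate 4, at 387, lay within the wild type range. The log2 difference was -0.19 ± 0.05 (adjusted p = 0.043, edgeR). The call was lost under 12 of 17 other settings, and without knockin replicate 4 the difference was -0.26 (adjusted p = 0.00042). After ASO, Glrb had 342, 338, 326 and 326 CPM, all below wild type (-0.22 ± 0.05, adjusted p = 0.057), with no shift from vehicle that passed the test (-0.03, adjusted p = 0.81). General neuron markers fell in the same tissue for 3 of 10 genes and cholinergic motor neuron markers for 5 of 6, where 5.65% of all genes tested fell. The part of these markers in the result was not tested. Glrb in medulla at 28 weeks differed by -0.01 ± 0.05 (adjusted p = 0.95), with 379.5 to 443 CPM in wild type and 324 to 429 in knockin.

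With all libraries in the fit, Glra1 and Glra3 were not called in any comparison of genotype or treatment. In medulla at 28 weeks wild type Glra1 split by batch, at 49.6 to 78.2 CPM in batch 1 and 24.1 to 29.8 in batch 2, and vehicle-treated knockin replicate 2 had 9.96 CPM where the other 7 had 37.1 to 57.9. The difference between knockin and wild type was 0.11 ± 0.28 (adjusted p = 0.84). Within batches it had opposite signs, -0.49 in batch 1 (adjusted p = 0.61) and 0.67 in batch 2 (adjusted p = 0.07). In pons at 28 weeks Glra3 had 30.9, 25.7, 31.2 and 28 CPM in wild type and 40.4, 47.3, 42.2 and 26 CPM in knockin (0.43 ± 0.19, adjusted p = 0.18). Without knockin replicate 4, at 26 CPM, it was called higher (0.57 ± 0.15, adjusted p = 0.024, edgeR). That library lay within the wild type range, so a larger difference without it follows from the choice of library. In cerebellum, where both alpha subunits are scarce, Glra3 had 1.32, 0.719, 0.449 and 0.894 CPM in wild type and 3.26, 3.13, 0.795 and 10.3 CPM in knockin. There 3 of 4 knockin libraries were above all wild type libraries (2.37 ± 0.79, adjusted p = 0.16). The highest library was the same for both alpha subunits in vehicle-treated knockin, replicate 4 (Glra3 10.3 and Glra1 2.48 CPM). The same held in ASO-treated knockin, replicate 2 (8.28 and 2.38 CPM). What sets these libraries apart was not tested.

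Of Gad1, Gad2 and Slc32a1, edgeR called 1 between knockin and wild type, Gad1 in medulla at 28 weeks. In cerebellum Gad1 had 796, 828, 807 and 808 CPM in wild type and 689, 692, 695 and 655 CPM in knockin, and the groups did not overlap (-0.24 ± 0.07, adjusted p = 0.11, edgeR). Slc32a1 had 168, 166, 174 and 171 CPM in wild type and averaged 140.2 CPM in knockin (lowest 136), also without overlap (-0.27 ± 0.07, adjusted p = 0.0518). DESeq2 called both (adjusted p = 0.01 and 0.0033), as did edgeR when ASO replicate 2 or 3 was left out. With any 1 wild type or vehicle-treated knockin library, or ASO replicate 1, left out, edgeR called neither. Gad2, by contrast, averaged 193 and 189.8 CPM (-0.02 ± 0.1, adjusted p = 0.98). After ASO, Gad1 averaged 686 CPM and Slc32a1 133 CPM, and neither moved from vehicle by an amount that passed the test (0.01, adjusted p = 0.97, and -0.07, adjusted p = 0.69). Against wild type the ASO-treated libraries were again all lower for both, by -0.23 (adjusted p = 0.26) and -0.34 (adjusted p = 0.17). Mean log2 CPM of Purkinje cell markers was 9.09 to 9.17 in wild type, 8.23 to 8.48 in knockin and 8.39 to 8.93 after ASO. These markers fell in the knockin for 6 of 10 genes, with none at 0. Of all genes tested in cerebellum, 2.71% were called and 2.06% fell. Golgi cell and molecular layer interneuron markers were called for 0 of 10, with 4 at an unadjusted p under 0.05. The part of these cells in the Gad1 and Slc32a1 values was not tested.

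Gad1 passed the threshold narrowly in medulla at 28 weeks. Wild type ranged from 229.7 to 318 CPM (median 256) and knockin from 214 to 252 (median 232), which overlap (-0.17 ± 0.06, adjusted p = 0.0495, edgeR). The call was lost under 24 of 32 other settings, among them batch 1 alone (-0.13, adjusted p = 0.38), batch 2 alone (-0.22, adjusted p = 0.094) and the data without the libraries low in Hox genes (-0.14, adjusted p = 0.085). Slc32a1 stood just outside, at 169 to 198 CPM in wild type and 131 to 191 in knockin (-0.18 ± 0.06, adjusted p = 0.0516, edgeR), and DESeq2 called it (adjusted p = 0.041). Gad2 differed by -0.17 ± 0.12 (adjusted p = 0.36). The list for Golgi cells and molecular layer interneurons, which are cells of the cerebellum, fell here for 5 of 10 genes. General neuron markers fell for 2 of 10, where 9.99% of all genes tested fell. In medulla the first list does not stand for those cells of the cerebellum. The part of either list in the Gad1 value was not tested. Pons at 28 weeks gave no call for Gad1 (-0.13, adjusted p = 0.46), Gad2 (-0.12, adjusted p = 0.19) or Slc32a1 (-0.1, adjusted p = 0.45), though Slc32a1 was called lower without knockin replicate 4 (-0.18 ± 0.06, adjusted p = 0.045). In pons at 18 weeks Slc32a1 had 135, 164 and 122 CPM in wild type and 104, 65.7 and 118 CPM in knockin, with no overlap and no call (-0.53 ± 0.19, adjusted p = 0.41). Over the 15 group means the pattern of Gad2 was nearest to those of St6gal2 (r = 0.945), Tenm2 (0.944), Shisa9 (0.94), Cubn (0.939) and Pax5 (0.935).

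Gphn was not called in any comparison with all libraries in the fit. Between knockin and wild type it differed by -0.02 to 0.04 on the log2 scale in the 5 combinations of tissue and age, with standard errors of 0.04 to 0.11. Within the batches of medulla at 28 weeks it differed by -0.07 ± 0.05 in batch 1 (adjusted p = 0.46) and by 0.13 ± 0.04 in batch 2, where edgeR called it (adjusted p = 0.027). Its group means ran from 72.3 to 92.6 CPM. In the order of the 15 group means, neighbouring groups overlapped in 14 of 14 pairs for Gphn and Gad2 and in 12 of 14 for Gad1, with 13 of 14 for each of the other 6 genes.

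Whether effects differed between tissues was tested as an interaction. Of the 9 genes, edgeR and DESeq2 called 0 for the knockin effect in medulla against pons at 28 weeks (0.0184% of genes tested by edgeR), 0 for the ASO effect (0.0%), and 0 for the knockin effect of cerebellum against medulla (0.374%) or against pons (0.0513%) at 18 weeks. Unadjusted p under 0.05 was reached by 1, 0, 2 and 1 genes. For Slc6a9 the effects in medulla and pons differed by -0.01 ± 0.1 for the knockin (adjusted p = 0.99) and by -0.04 ± 0.1 for the ASO (adjusted p = 1.0). For Glrb the knockin effects differed by 0.19 ± 0.09 (adjusted p = 0.58), so the call in pons alone is not a shown difference from medulla. Between cerebellum and medulla at 18 weeks the Slc6a9 effect differed by -0.22 ± 0.12 (adjusted p = 0.76).

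Other genes of the pathway were read from 8 lists. In the knockin at 28 weeks Slc6a11, the GABA transporter GAT-3, which sits mainly on astrocytes, fell from 615 to 375 CPM in medulla (-0.71 ± 0.08, adjusted p = 2.7e-06) and from 679 to 475 CPM in pons (-0.52 ± 0.12, adjusted p = 0.018). With the ASO it rose to 489 CPM in medulla (0.39 ± 0.08, adjusted p = 0.016) and remained below wild type (-0.32, adjusted p = 0.035). Of all genes tested, 9.99% fell in medulla and 5.65% in pons in the knockin, and 1.3% rose with the ASO in medulla. The astrocyte markers given above moved with Slc6a11 as they did with Slc6a9.

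Of 9 genes that make or cleave serine and glycine, Shmt1 (-0.67 ± 0.12, adjusted p = 0.013) and Gldc, of the glycine cleavage system (-0.44 ± 0.1, adjusted p = 0.03), fell in knockin cerebellum. Psat1, of serine synthesis, rose in medulla at 28 weeks (0.29 ± 0.05, adjusted p = 0.00043) and came down with the ASO (-0.24 ± 0.05, adjusted p = 0.02), while Gcsh fell (-0.14 ± 0.05, adjusted p = 0.04). In the knockin 2.06% of all genes tested fell in cerebellum, and in medulla at 28 weeks 9.28% rose and 9.99% fell. With the ASO 0.386% fell in medulla at 28 weeks. Glra2, 1 of 2 other glycine receptor subunits, rose in knockin cerebellum from 2.91 to 6.66 CPM (1.2 ± 0.28, adjusted p = 0.043). There, 0.654% of all genes tested rose. Of the GABA-A receptor subunits, 1 of 17 fell in knockin cerebellum, Gabra2 (-0.34, adjusted p = 0.013), where 2.06% of all genes tested fell. At 28 weeks 1 of 18 rose in medulla and in pons, Gabrr2 (0.64, adjusted p = 0.0042) and Gabrg1 (0.22, adjusted p = 0.024). Of all genes tested, 9.28% rose in medulla and 4.14% in pons.

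Of 5 GABA-B receptor genes, 2 fell in knockin cerebellum and 1 in medulla at 28 weeks, where 2.06% and 9.99% of all genes tested fell. Kctd12, an auxiliary subunit, fell from 277 to 132 CPM (-1.06 ± 0.08, adjusted p = 0.0001) and rose to 213 CPM with the ASO (0.69 ± 0.08, adjusted p = 0.0077). Gabbr1 fell by 0.38 in cerebellum (adjusted p = 0.0074) and by 0.18 in medulla at 28 weeks (adjusted p = 0.0018). Of 10 organisers of the inhibitory synapse, Insyn1, a partner of gephyrin, fell in cerebellum (-0.56 ± 0.07, adjusted p = 0.0012) and medulla (-0.33 ± 0.05, adjusted p = 2.6e-05), where it rose with the ASO (0.18 ± 0.05, adjusted p = 0.0468). In pons at 28 weeks 1 of 10 fell, Iqsec3 (-0.17, adjusted p = 0.045), where 5.65% of all genes tested fell. Of 10 tested transcription factors of inhibitory hindbrain neurons, Lhx5 fell in cerebellum (-0.85 ± 0.09, adjusted p = 0.00095) and medulla (-0.43 ± 0.07, adjusted p = 0.00022). Beside Insyn1 and Lhx5, 2.06% of all genes tested fell in cerebellum and 9.99% in medulla at 28 weeks. With the ASO 1.3% rose in medulla at 28 weeks and 0.0491% in cerebellum. None of the 6 chloride transporter genes was called by edgeR in any comparison of genotype or treatment, with 0 to 3 of them at an unadjusted p under 0.05 in each.

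Wild type cerebellum and medulla differed in 59.2% of genes tested. Of GABA-A subunits, 15 of 18 were called between them, 5 higher in cerebellum and 10 lower, with Gabra3 (-3.05), Gabra5 (-5.87) and Gabrg3 (-3.34) at the smallest adjusted p. Both other glycine receptor subunits were lower in cerebellum, Glra2 by -2.66 and Glra4 by -4.06, as was Slc6a11 by -2.99. Shmt2 (1.24), Gldc (3.02) and Kctd12 (2.37) were higher there. Among transcription factors, Pax8 (-7.32) and Gata3 (-6.06) were lower and Lhx5 (1.7) higher in cerebellum.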

How the data were processed

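Per the submitters' processing notes, the authors called bases with CASAVA 1.8, aligned reads to GRCm38 with HISAT2 2.0.2 and counted reads per gene with featureCounts of Subread; the deposited values are whole-number counts, and 0 of 65 columns were left out. How counting handled strand and read pairs: not given in the sources used here. Low counts, from 1 to 20, were even in 70.0% to 78.6% of cases per library, so mates may have been counted separately. GENCODE vM21 named 49411 IDs; the other 259 held 0.035% of counts.

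Here counts were tested with edgeR 4.0.16 (limma 3.58.1, R 4.3.3): TMM scaling, filterByExpr with a count minimum of 10, and its robust quasi-likelihood test, adjusted by Benjamini and Hochberg's method across every gene tested, with a threshold of 0.05. Each combination of tissue and age was 1 model of its 3 groups, with batch as a term for medulla at 28 weeks, so a library of the group outside a comparison can move it. Wild type tissues and the differences of effects between tissues (interactions) were tested in joint models, 23 comparisons in all. Log2 differences are given with standard errors, and levels as CPM with standard deviations. Depth sets the precision of low genes such as Glra1 and Glra3 in cerebellum. The procedure was tested on simulated data first.

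The 9 genes and all gene lists were chosen with earlier results of these data known. Named are the 9 genes, Atxn1, up to 3 called genes of smallest adjusted p per pathway list and comparison, up to 3 per marker list, and the 5 genes most like Slc6a5, Slc6a9 and Gad2 by Pearson r among genes averaging 1 or more in log2 CPM (pseudocount of 1 count). A gene that falls under this rule is not reported here. Pcp2, a Purkinje marker, is named for its level, and genes that overlap Slc6a9, Slc32a1 and Glra1 were added to the named ones. Alternatives were RLE scaling, no filter, 2 groups only, a replicate block, single batches, no batch term, DESeq2 1.42.0 and leaving out each library. Leaving out the libraries low in Hox genes was chosen after seeing the data. So were leaving out wild type replicate 3 and ASO replicate 2 of medulla and pons at 18 weeks for their Atxn1, and a block of the number in the column names.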

Additional observations from a re-analysis of the deposited data

Results flagged for a closer look

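In 8 of 81 sets of libraries (1 gene in 1 group of 4 to 8) the lowest or highest library stood apart from the rest by a gap that is large against the range of the group. Chance flags about 1 in 20 such sets. Slc6a9 had 170.3 CPM in ASO replicate 2 of medulla at 28 weeks, where the other 6 had 197 to 216, and 226 CPM in ASO replicate 1 of pons at 28 weeks, where the other 3 had 164 to 169. Vehicle-treated knockin replicate 2 of medulla at 28 weeks was low in Glra1 (9.96 CPM against 37.1 to 57.9) and in Glrb (324 CPM, with the other 7 well above it and up to 429). Glrb was high in vehicle-treated knockin replicate 4 of pons at 28 weeks, at 387 CPM against 322 to 332. Gad1 was low in vehicle-treated knockin replicate 4 of cerebellum, at 655 CPM against 689 to 695. Gad2 was high in wild type replicate 5 of medulla at 28 weeks, at 325 CPM against 179 to 233, and this library is 1 of the 4 low in Hox genes. Gphn had 79.6 CPM in vehicle-treated knockin replicate 2 of pons at 28 weeks, where the other 3 had 74.5 to 75.2.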

How the results depend on the processing

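No called difference changed sign. Of the values for single genes under other settings, 4339 stayed on their side of the threshold, 38 gained a call and 69 lost one. Slc6a9 between knockin and wild type was called under all 32 other settings in medulla at 28 weeks and all 17 in pons, and lost in 11 of 17 in cerebellum. The counts of called genes among the 9 rest on few genes near the threshold. For knockin against wild type in cerebellum the count of 1 became 2 with RLE scaling, 0 without the filter, 3 with 2 groups only and 3 with DESeq2, and ranged from 0 to 3 with 1 library left out. In medulla at 28 weeks the count of 2 became 1 without the filter, 1 with 2 groups only, 1 in batch 1 alone, 1 without the batch term, 1 without the libraries low in Hox genes and 3 with DESeq2, and ranged from 1 to 3. Batch 2 alone also gave 2, with Gad1 lost (adjusted p = 0.094) and Gphn gained (0.13, adjusted p = 0.027). In pons at 28 weeks the count of 2 became 1 with 2 groups only and ranged from 1 to 4, with 4 when vehicle-treated knockin replicate 4 was left out, which added Glra3 (0.57, adjusted p = 0.024) and Slc32a1 (-0.18, adjusted p = 0.045). That library lay within the wild type range for Glra3, Glrb and Slc6a5 and above it for Slc32a1. Larger differences without it therefore follow from the choice of library. For ASO against vehicle in medulla at 28 weeks the count of 1 became 0 in batch 1 alone and 0 in batch 2 alone, and so did that of ASO-treated knockin against wild type. For the latter comparison the count of 0 became 2 with DESeq2 in cerebellum (0 to 1 with 1 library left out) and, in pons at 28 weeks, 1 with DESeq2 and 1 with 2 groups only (0 to 1). For wild type medulla against pons the count of 6 at 28 weeks became 2 with batch 2 alone and ranged from 1 to 6, and that of 0 at 18 weeks ranged from 0 to 1, with 1 when pons wild type replicate 2 was left out. The knockin effect in medulla against pons had 1 call with batch 2 alone in place of 0. The causes were not tested.

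Replicate numbers do not pair libraries of different groups within a tissue and age: deviations of same-numbered libraries correlated with a median r of -0.32 to 0.09 in the 5 combinations. Across tissues, libraries with the same number in the column names had a median r of 0.18 for medulla and pons at either age. It was 0.34 for cerebellum and medulla and 0.02 for cerebellum and pons, beside -0.06 to 0.01 in other pairs. The main comparisons between tissues did not use this number and treated these libraries as independent. With a replicate block the count for knockin against wild type became 0 in cerebellum, 1 in medulla at 28 weeks and 1 in pons at 28 weeks. A block of the number in the column names, which recurs across tissues, kept 1 wild type library each of cerebellum and medulla at 18 weeks. In that fit the knockin effect on Gad2 in cerebellum against medulla was 0.54 on the log2 scale. The medulla library kept, wild type replicate 2, had the highest Gad2 of its group, at 342 CPM against 219 and 245.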
